A study of Mus musculus with 50 samples.

Results

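The MG tumors of mice that received chronic X10 were compared with those of mice that received chronic insulin, with 10 tumors in each treatment group, which are 20 of the 50 tumors of the series. All mice were female p53R270H/+WAPCre mice, in which Cre under the Wap promoter, active in mammary epithelium, switches on a mutant p53 allele beside the remaining wild-type allele, and they were 8 weeks old at the start. Injections were subcutaneous, on alternate days, and went on until a tumor arose. Tumors were taken at 1 cm3, 24 h after the last injection, and the authors chose EMT-like tumors whose latency was near the median of their group. The vehicle group of 10 tumors, from mice of the same genotype and schedule, is given as background, and the glargine and IGF1 tumors only share the fit. X10 is human insulin with aspartate in place of a histidine in the B chain. The doses are not given in the labels, so X10 and insulin are compared as injected in this study.

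Insulin and its relatives act through 2 related receptor tyrosine kinases. The insulin receptor (Insr) mainly directs glucose uptake and storage, and the IGF1 receptor (Igf1r) mainly directs growth and division; both recruit IRS and SHC adaptors and switch on the PI3K, AKT and mTOR branch and the RAS and ERK branch. AKT also keeps FOXO transcription factors out of the nucleus, so FOXO targets are read as an inverse of the PI3K branch. X10 is known for binding that lasts longer than that of insulin and for stronger growth effects on mammary cells, which is why it serves as the mitogenic counterpart of regular insulin. In the mammary gland the same pathways drive ductal growth, and transformed epithelium that undergoes EMT loses cadherin 1 and keratins and gains vimentin.

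Few genes differed between X10 and insulin tumors. Of 16733 tested genes, 17 passed the test, or 0.102% (limma on log2(RPKM + 0.5), Benjamini-Hochberg adjusted p under 0.05). X10 tumors were higher for 4 of them (0.0239% of tested genes) and lower for 13 (0.0777%). The 4 genes that rose with X10 were protein-coding (Rpl30, Mob4, Atp5c1 and Eif3m), as was 1 gene that fell (Crtc1), and the other 12 genes that fell are annotated as pseudogenes. At an unadjusted p under 0.05 there were 1892 genes (11.3%), 505 of them higher with X10 (3.02%) and 1387 lower (8.29%). This split depended on the scaling, with 947 higher and 941 lower after quantile normalization and 801 higher and 812 lower with the correction for GC content and length. The tumors came from separate mice, so that the p-values measure the spread between mice. On the log2 scale the median difference of all tested genes was -0.067, and 38.6% of them were higher with X10, a split against which the gene lists below are to be read. That share was 49.4% after quantile normalization and 48.5% with the GC and length correction. Of the 57 lists, 48 had a median that moved by over 1.5 times or turned sign when some single tumor was left out. Glycolysis and mast cell markers had a median that did neither in any of the 34 alternatives.

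The count of 17 moved with single tumors. Without insulin_13 there were 47 genes (0.281%), 6 higher with X10 (0.0359%) and 41 lower (0.245%), without X10_105 there were 66 and without X10_107 there were 95, and all 17 genes were among them each time. Leaving out 1 other tumor gave 5 genes (insulin_9, insulin_14 or insulin_27, or X10_95, X10_111, X10_115 or X10_118), 6 (insulin_37), 7 (insulin_26, X10_113 or X10_116), 8 (insulin_8) or 9 (insulin_15 or insulin_18), and between 12 and 18 for the rest. Without insulin_13, 20 of the 47 genes were protein-coding, with Rad1 joining the genes that rose and Pcnxl3, Tln1, Cherp, Prrc2a, Zc3h18 and Gon4l among those that fell.

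Some tumors and libraries stood apart. The tumor insulin_13 held salivary gland transcripts (Bpifa2, Smr3a and Amy1 led the list) at a summed level of 132119 RPKM over the tested members, and salivary genes made up 17.6% of all its RPKM, where the highest X10 tumor had a sum of 144 RPKM. X10_105 and X10_111 had the highest levels of the epithelial genes Grhl2, Serpinb5 and Cdh1 among the 20 tumors. Library sizes were between 29.6 and 50.4 M reads in the X10 group (median 35.4) and between 34.1 and 51.9 M reads in the insulin group (median 39.7), with a mean difference of -2.54 M reads (two-sided permutation test, 100000 resamples, p = 0.356). Processed pseudogenes took between 3.29 and 5.78% of the RPKM of X10 tumors (median 3.78%) and between 4.09 and 7.28% of that of insulin tumors (median 4.91%). In 6 X10 tumors (X10_111, X10_113, X10_115, X10_116, X10_118 and X10_120) the share was between 3.29 and 4.06%, below every insulin tumor, and the median level of GC-rich over GC-poor genes was between -0.41 and -0.20 on the log2 scale, also below every insulin tumor. The other 4 X10 tumors had shares between 4.64 and 5.78% and a level of GC-rich over GC-poor genes between -0.154 and 0.163. By that level X10_100, at -0.154, was also below every insulin tumor (lowest -0.128). Among protein-coding genes, the median difference was 0.065 in the GC quintile with the lowest content and -0.12 in that with the highest, on the log2 scale.

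Rpl30, which encodes a protein of the large ribosomal subunit (chr15:34440505-34443640, minus strand), was at 293, 393 and 473 RPKM in X10 tumors (lowest, median and highest) and at 202, 241 and 289.7 RPKM in insulin tumors. All 10 X10 tumors were above all 10 insulin tumors, and vehicle tumors, at 203, 310.3 and 424 RPKM, overlapped both. The rise was 0.66 on the log2 scale with an SE of 0.12 (95% confidence interval 0.42 to 0.91, limma, adjusted p = 0.00918). Without X10_105 the adjusted p was 0.00529, and the call held for each of the 20 tumors left out in turn. With a correction for GC content and gene length the difference was 0.52 and the call was lost (adjusted p = 0.158). Rpl30 has 10 tested pseudogenes with at least 95% identity over 150 bases or more, so that reads may be shared between them; 7 of the 10 had a higher mean with X10 and 0 passed the test. By the same measure Atp5c1 has 2 such pseudogenes (Gm14794 at -0.47 and Gm8722 at -0.054 on the log2 scale) and Eif3m has 1 (Gm7658 at -0.048), which had lower means with X10 and did not pass.

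Mob4, a subunit of the striatin phosphatase complex (STRIPAK) that restrains Hippo kinases (chr1:55131231-55154899, plus strand), had 39.7, 51.1 and 60.9 RPKM with X10 and 29.9, 36.3 and 41.8 RPKM with insulin. In 8 of the 10 X10 tumors it was above every insulin tumor, and the lowest X10 tumors lay within the insulin range. It rose by 0.47 on the log2 scale (SE 0.096, limma, adjusted p = 0.0335).

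Atp5c1, the gamma subunit that forms the rotating stalk of the mitochondrial ATP synthase (chr2:10056016-10080510, minus strand), was at 131, 185 and 231 RPKM with X10 and at 120.01, 135.7 and 152 RPKM with insulin. In 9 of the 10 X10 tumors it was above every insulin tumor, and X10_105 was within the insulin range. The rise was 0.45 on the log2 scale (SE 0.099, limma, adjusted p = 0.0419).

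Eif3m, a subunit of the translation initiation factor eIF3 (chr2:104999656-105017080, minus strand), was at 67.7, 89.0 and 121 RPKM with X10 and at 53.1, 67.4 and 70.8 RPKM with insulin. Again 9 of the 10 X10 tumors were above every insulin tumor. It rose by 0.43 on the log2 scale (SE 0.095, limma, adjusted p = 0.0419). The calls of Mob4, Atp5c1 and Eif3m depended on single tumors. With X10_111, the highest tumor for Atp5c1 and Eif3m, left out, the adjusted p was 0.134 for Atp5c1, 0.138 for Eif3m and 0.0824 for Mob4. The log2 differences were then 0.41, 0.38 and 0.46. Of the 20 settings that leave out a tumor, Mob4 passed in 10, Eif3m in 5 and Atp5c1 in 4. All 5 protein-coding calls were lost with the GC and length correction, where the log2 difference was 0.35 for Mob4 (adjusted p = 0.0827), 0.49 for Atp5c1 (0.0693) and 0.29 for Eif3m (0.324). With the processed pseudogene score as a covariate these 3 calls were lost as well (adjusted p = 0.177, 0.274 and 0.177), at log2 differences of 0.41, 0.38 and 0.41.

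Crtc1, a coactivator of the transcription factor CREB (chr8:70382355-70439579, minus strand), was the protein-coding gene that fell. Its levels were 11.3, 17.6 and 22.8 RPKM in X10 tumors and 23.8, 29.6 and 38.0 RPKM in insulin tumors. The groups did not overlap, and vehicle tumors, at 11.6, 24.3 and 33.1 RPKM, overlapped both. It fell by 0.75 on the log2 scale (SE 0.14, 95% confidence interval -1.04 to -0.46, limma, adjusted p = 0.0149). X10_95 was lowest, and without it the adjusted p was 0.0512. With the correction for GC content and length the difference was -0.53 and did not pass (adjusted p = 0.121). Over all tested genes, groups without overlap were found for 4 genes (0.0239%), 2 in each direction (0.012% each), which were Rpl30, Crtc1, the pseudogene Gm14078 and Commd3, the last higher with X10 (58.7 to 84.9 against 43.7 to 57.8 RPKM, adjusted p = 0.133).

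**Figure D1:**
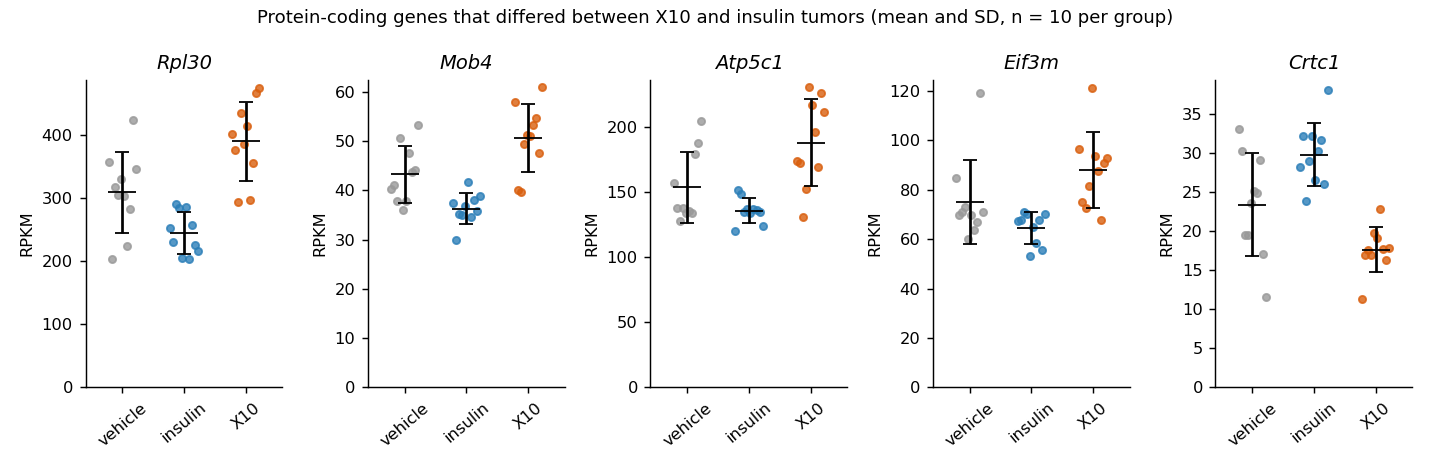
RPKM of the 5 protein-coding genes that passed the test, by tumor, in the vehicle, insulin and X10 groups (n = 10 each), with the mean and SD as black bars and a linear axis from 0. Rpl30, Mob4, Atp5c1 and Eif3m are higher and Crtc1 lower in X10 tumors than in insulin tumors, and the vehicle tumors lie between or across both groups.

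The other 12 genes that fell with X10 are pseudogenes, most of them processed, that is, copies of a spliced transcript inserted elsewhere in the genome. Because their sequence is close to that of their coding gene, a read of the coding gene may be assigned to them. For 4 of them, a 60-base stretch of the GENCODE M21 transcript is shown 5′ to 3′ beside the coding gene's, to show which bases tell a read of one from a read of the other. Each stretch was chosen to differ about as often as the whole alignment. Over the aligned part, the identity of a called pseudogene to its coding gene was between 85.0% (Gm5124) and 100% (Gm5884). That part was 46.8% of the pseudogene transcript for 5830417I10Rik, 52.5% for Gm8839 and 64.1% for Gm8844, and at least 99.9% for the others. Gm14078 and Calr, at 92.5%, are the least alike of the 4 pairs shown. Of the pairs not shown, 5830417I10Rik (99.0%), Gm15773 (95.8%), Gm5939 (95.1%) and Gm14753 (94.7%) are more alike than that, while stretches chosen in the same way differ at 9 positions for Gm5124, 7 for Gm13444 and 6 for Gm8844, and these 3 and Gm8839 are at 89.9% or less. Positions are counted from the first base of the coding sequence of the coding gene, and capitals mark the bases that differ.
Gm5637 (positions 37 to 96 of Arpc1b): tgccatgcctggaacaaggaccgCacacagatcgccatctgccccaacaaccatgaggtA
Arpc1b: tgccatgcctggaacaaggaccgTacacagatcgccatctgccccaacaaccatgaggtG
Gm12571 (positions 1 to 60 of Lsm6): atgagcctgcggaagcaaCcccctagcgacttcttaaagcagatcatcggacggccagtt
Lsm6: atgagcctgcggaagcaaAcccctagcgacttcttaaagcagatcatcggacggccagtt
Gm14078 (positions 769 to 828 of Calr): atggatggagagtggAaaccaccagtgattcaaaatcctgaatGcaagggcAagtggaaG
Calr: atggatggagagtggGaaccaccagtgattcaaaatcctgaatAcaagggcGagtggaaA
Gm5884 (positions 1 to 60 of Tom1): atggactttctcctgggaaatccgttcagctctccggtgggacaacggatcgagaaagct
Tom1: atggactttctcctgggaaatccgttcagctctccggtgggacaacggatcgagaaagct

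These 4 pseudogenes passed the test with all tumors, and their coding genes did not. With 1 tumor left out, Gm5637 passed in 12 of 20 settings, Gm14078 and Gm5884 in 9 and Gm12571 in 6. Gm5637 (chrX:60045111-60046229, minus strand) is 97.5% identical to Arpc1b, an Arp2/3 complex subunit, over 1119 bases. Its levels were 20.7, 29.9 and 55.2 RPKM with X10 and 42.5, 56.7 and 78.3 RPKM with insulin, and 9 of the 10 X10 tumors were below every insulin tumor. It fell by 0.84 on the log2 scale (limma, adjusted p = 0.0241), while Arpc1b, at 402, 509.9 and 698 against 498, 557 and 758 RPKM, had a difference of -0.22 (adjusted p = 0.487). Gm12571 (chr11:78149196-78149438, minus strand) matches Lsm6, an RNA-binding protein of the spliceosome, at 98.4% over 243 bases. It fell by 0.94 (limma, adjusted p = 0.0419), where Lsm6 had -0.11 (0.844).

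Gm14078 (chr2:140955765-140956249, minus strand) resembles Calr, which encodes the chaperone calreticulin, at 92.5% over 495 bases, and was at 41.2, 65.0 and 78.2 RPKM with X10 and 83.0, 99.4 and 147.3 RPKM with insulin. The groups did not overlap. It fell by 0.73 on the log2 scale (limma, adjusted p = 0.0370), where Calr had a difference of -0.21 (adjusted p = 0.451). Gm5884 (chr6:128644913-128646391, plus strand) is identical to Tom1, an endosomal sorting adaptor, over all its 1479 bases, so that no read inside it can be told apart from one of Tom1. It fell by 0.74 (limma, adjusted p = 0.0337), and Tom1 had a difference of -0.43 that did not pass (adjusted p = 0.150).

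Of the remaining pseudogenes, Gm8839 fell by 0.69 and Gm8844 by 0.64 (both copies of Abcf1), Gm5939 by 0.85 (Zc3h18), Gm14753 by 0.81 (Arpc1a), 5830417I10Rik by 0.64 (Gon4l, the only one annotated as unprocessed), Gm13444 by 1.12 (Tmed9), Gm15773 by 0.81 (Psip1) and Gm5124 by 0.83 (Nolc1), all on the log2 scale. None of the 11 distinct coding genes passed, and the nearest was Zc3h18 (-0.50, limma, adjusted p = 0.0618). Without insulin_13, and again without X10_107, Zc3h18 and Gon4l passed along with their pseudogenes. Gm8839 passed in 32 of 32 alternatives that tested it, and the other 11 pseudogenes lost the call with the processed pseudogene score as a covariate, at log2 differences between -0.76 (Gm13444) and -0.39 (Gm8844). The score is built from processed pseudogenes, the class of those called except 5830417I10Rik. With 1 tumor left out, Gm5939 and Gm14753 passed in 20 of 20 settings, Gm5124, Gm13444 and 5830417I10Rik in 6, and Gm8844 and Gm15773 in 3. Gm8839 was at 0.419, 0.703 and 1.46 RPKM with X10 and at 1.14, 1.502 and 2.06 RPKM with insulin, which are low values. As a class, 82.5% of the 2055 tested pseudogenes had a lower mean with X10, with a median of -0.26 on the log2 scale, where the median of protein-coding genes was -0.045. Their part in the RPKM of each tumor is given above, and how far shared reads set these values was not tested. In the 6 X10 tumors with low processed pseudogene shares, Gm14753 was at 8.13 to 13.8 RPKM and Gm5637 at 20.7 to 30.4 RPKM. The other X10 tumors had 14.8 to 21.7 and 36.4 to 55.2 RPKM. Not every called pseudogene followed this split, as Gm15773 was at 2.62 RPKM in X10_100 and at 2.61 to 4.83 RPKM in the 6. The cause was not tested.

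Next to the genes that rose came 6 protein-coding genes that did not pass. They were Rad1, of the checkpoint clamp (0.51, adjusted p = 0.0645), Asz1, a germ cell gene (1.64, 0.0704), Snrpe, of the spliceosome (0.51, 0.0823), Ppil3, a prolyl isomerase (0.45, 0.0961), and the proteasome genes Psmd14 (0.43, 0.0961) and Psma3 (0.58, 0.1003; all limma, log2 scale). Rad1 was at 6.84, 8.71 and 11.7 RPKM with X10 and 4.82, 6.07 and 7.198 RPKM with insulin, with 9 of the 10 X10 tumors above every insulin tumor. Without X10_105, Asz1, Snrpe, Ppil3, Psmd14 and Rad1 passed, with adjusted p-values of 0.0288, 0.0346, 0.0368, 0.0288 and 0.0368. Asz1 was at no more than 0.231 RPKM in insulin tumors, near the floor, and at 27.0 RPKM in X10_100. That level alone was enough for Asz1 to meet the filter of a mean of 0.5 RPKM, so its higher mean with X10 is not independent of the filter.

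The hormone receptors and ligands themselves did not pass the test. Insr was at 5.92, 7.92 and 12.2 RPKM with X10 and 7.24, 9.99 and 12.3 RPKM with insulin, and Igf1r was at 3.24, 5.57 and 13.2 and 4.81, 6.67 and 11.0 RPKM. The groups overlapped widely for both. The difference was -0.19 for Insr (95% confidence interval -0.51 to 0.12, limma, adjusted p = 0.682) and -0.33 for Igf1r (-0.74 to 0.081, adjusted p = 0.563), intervals that hold reductions of up to 0.51 and 0.74 on the log2 scale as well as small increases. Igf2r, which takes IGF2 out of the circulation to the lysosome, had a difference of 0.093 (-0.33 to 0.52, adjusted p = 0.918).

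Of the ligands, Igf1 was at 6.82, 36.5 and 65.9 RPKM with X10 and 27.6, 47.4 and 68.9 RPKM with insulin, with a log2 difference of -0.43 (95% confidence interval -1.16 to 0.31, limma, adjusted p = 0.702). The lowest of the 20 tumors was X10_95, and without it the difference was -0.18. Igf2, the fetal growth factor, ranged over orders of magnitude in both groups, at 2.07, 13.5 and 1180.2 RPKM with X10 and 0.459, 3.20 and 1449 RPKM with insulin. Its difference of 1.95 had an interval of -1.20 to 5.09 (limma, adjusted p = 0.675).

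Irs1 and Irs2 are the main substrates of both receptors. Irs1 had 2.35, 4.87 and 7.32 RPKM with X10 and 2.08, 4.32 and 6.11 RPKM with insulin, a difference of 0.091 (95% confidence interval -0.48 to 0.66). Irs2, which FOXO factors induce when insulin signals are low, had 1.19, 2.27 and 5.57 RPKM with X10 and 2.49, 4.44 and 10.9 RPKM with insulin, and 6 of the 10 X10 tumors were below every insulin tumor. The difference was -0.72 (-1.31 to -0.12) with an unadjusted p of 0.0189, which did not pass over all genes (limma, adjusted p = 0.313). The adaptors Sh2b1 (-0.44, adjusted p = 0.146) and Shc1 (-0.36, 0.179) also had lower means with X10. Of 17 receptor adaptors, 7 were higher and 10 lower, with a median of -0.16, which was -0.038 with the GC and length correction, -0.040 with muscle, adipocyte and luminal marker scores as covariates and -0.081 after quantile normalization. Of 10 binding proteins that hold or release IGFs, 3 were higher and 7 lower (median -0.16, -0.067 without insulin_9 and -0.011 with the GC and length correction), with Stc1 at 0.49 (0.17 without X10_100), Igfbp7 at 0.19 (0.059 without X10_105), Stc2 at -0.55 and Igfbp5 at -0.71. None of the genes in these lists passed.

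Downstream, the PI3K, AKT and mTOR list had 8 of 30 genes higher with X10 and a median of -0.12, below that of all genes. At an unadjusted p under 0.05, 0 were higher and 6 lower, where 3.02% of all tested genes were higher and 8.29% lower, a background that depended on the scaling as given above. The lowest p-values in it were those of Tsc2, which restrains mTORC1 (-0.31, limma, adjusted p = 0.221), and Pik3r2, a regulatory subunit of PI3K (-0.37, 0.312). Rheb, the GTPase that switches mTORC1 on, had 0.19 (0.507). FOXO factors and their targets were higher for 5 of 18 genes (median -0.20). Members went both ways, with Ccng2, a FOXO-induced cyclin, at 0.52 (adjusted p = 0.333) and Foxo4 at -0.27 (0.444). With the GC and length correction the medians were -0.049 for the PI3K list and -0.13 for the FOXO list.

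RAS and ERK kinases were higher for 6 of 20 genes, with a median of -0.052 that became 0.00095 after quantile normalization. Hras had a difference of -0.072 (limma, adjusted p = 0.918) and Rras2 of 0.38 (0.335). Of 32 ERK feedback and immediate early genes, 21 were higher with X10 (median 0.060), among them Etv4 (0.59, 0.248) and Dusp4 (0.61, 0.495), whereas Etv5 (-0.47, 0.439) and Spry1 (-0.67, 0.444) were lower. None of them passed.

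**Figure D2:**
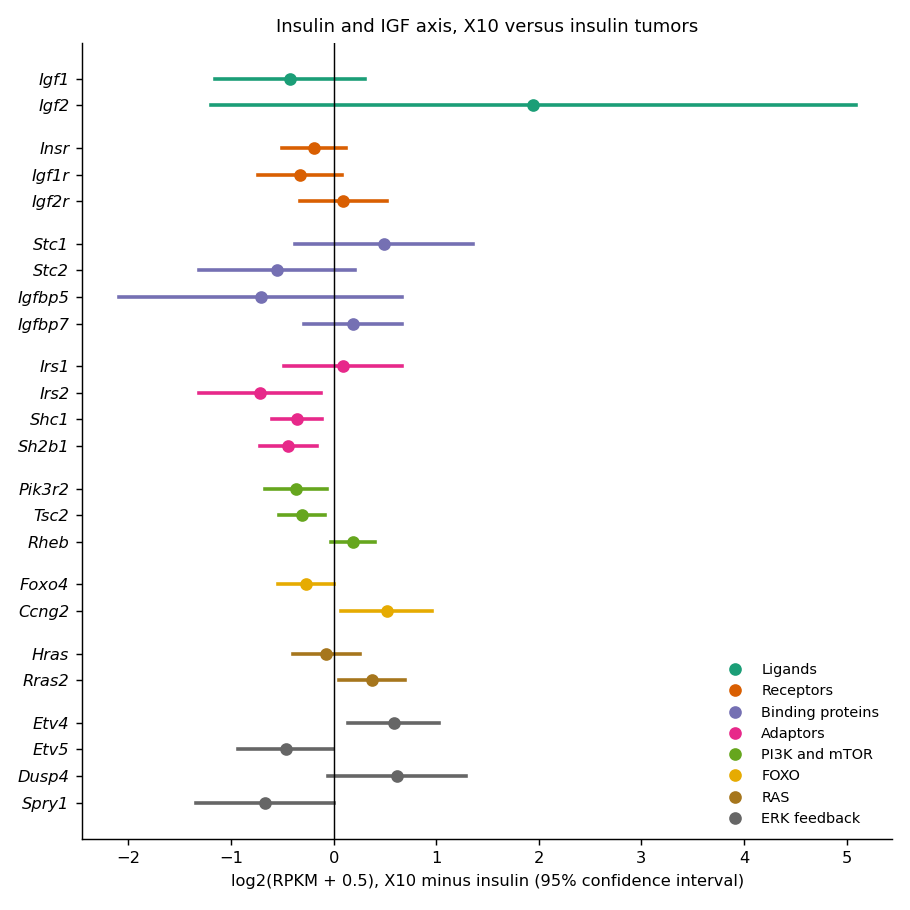
Difference between X10 and insulin tumors in log2(RPKM + 0.5) for genes of the insulin and IGF axis, as points with 95% confidence intervals (limma, 10 tumors per group), colored by their role. The intervals of Insr, Igf1r, Igf1 and Igf2 include 0, that of Igf2 is the widest, and none of the genes shown passed the test over all genes.

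Glycolysis genes were higher for 20 of 23, with a median of 0.25 on the log2 scale against -0.067 for all genes, and the median stayed above 0 in the 34 alternatives (0.20 to 0.34). Ldha, which turns pyruvate into lactate, was at 604, 817 and 1106 RPKM with X10 and 412, 597 and 809 RPKM with insulin, and 5 X10 tumors were above every insulin tumor. Its difference was 0.45 (limma, adjusted p = 0.324), and that of Aldoa was 0.42 (0.433). The hexokinases Hk3 (-0.47, 0.531) and Hk1 (-0.25, 0.606) went the other way. None of the 23 genes passed, and 2 were higher at an unadjusted p under 0.05 (3.02% of all tested genes).

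Hypoxia targets shared some of these genes and were higher for 21 of 22 (median 0.36, 0.17 without X10_100), with 0 passed. Pdk1, a kinase that inhibits pyruvate dehydrogenase, was at 25.6, 38.3 and 91.3 RPKM with X10 and 16.2, 27.7 and 39.9 RPKM with insulin, and Ero1l at 10.6, 21.1 and 79.1 and 8.29, 14.5 and 22.7 RPKM. X10_100 was highest for both, and the summed level of the list was 997, 1563 and 4888 RPKM in X10 tumors and 752, 1264 and 1875 RPKM in insulin tumors. The differences were 0.62 (limma, adjusted p = 0.338) and 0.72 (0.406). Pfkfb4 was the 1 member with a lower mean (-0.14, 0.839). In glucose and lactate transport, 7 of 19 were higher (median -0.014), with Mpc2 of the mitochondrial pyruvate carrier at 0.33 (0.360).

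Of 85 nuclear genes of oxidative phosphorylation, 58 were higher with X10 (median 0.092), Atp5c1 passed, and 13 were higher and 1 lower at an unadjusted p under 0.05 (3.02 and 8.29% of all tested genes). Ndufs3, of complex I, was at 41.9, 51.9 and 62.8 RPKM with X10 and 34.1, 39.1 and 46.1 RPKM with insulin, and in 8 of the 10 X10 tumors it was above every insulin tumor, with a difference of 0.36 that did not pass (limma, adjusted p = 0.146). Cox4i1, of complex IV, had the opposite sign (-0.33, 0.271). Of the 13 genes encoded in mitochondrial DNA, 10 were higher (median 0.23, 0.029 with quantile normalization and 0.12 with the GC and length correction), with mt-Nd3 at 0.55 (0.187) and mt-Nd1 at 0.39 (0.363), and 0 passed. The tricarboxylic acid cycle had 14 of 21 genes higher (median 0.075).

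In lipid synthesis, 15 of 24 cholesterol genes (median 0.12, and 0.013 without X10_113) and 12 of 22 fatty acid genes (median 0.028) were higher with X10. Sqle, which makes squalene epoxide, was at 16.6, 33.9 and 50.5 RPKM with X10 and 7.61, 17.3 and 34.7 RPKM with insulin, with a difference of 0.79 (limma, adjusted p = 0.196), and Fdft1 had 0.44 (0.404). Pentose phosphate and NADPH genes were higher for 7 of 18 (median -0.036). None of these genes passed.

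Cytosolic ribosomal proteins were higher for 54 of 84 (median 0.085, and 0.0026 without X10_95), of which Rpl30 passed, and 10 were higher and 0 lower at an unadjusted p under 0.05 (against the same background). Rpl23 was next, at 343, 646 and 958 RPKM with X10 and 421, 479 and 554 RPKM with insulin. In 9 X10 tumors it was above all insulin tumors and in X10_116 it was below them, with a difference of 0.41 (limma, adjusted p = 0.222). Mitochondrial ribosomal proteins were higher for 52 of 73 (median 0.068, and 0.023 without X10_95), with Mrps10 at 0.32 (0.248) and Mrpl4 at -0.31 (0.416).

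No division gene on the lists passed the test. S phase genes were higher for 13 of 32 (median -0.057) and genes of G2 and mitosis for 22 of 32 (median 0.043). Neither sign held throughout, with medians of 0.040 without X10_100 and 0.0034 without X10_105 for S phase and of -0.0088 without X10_115 for G2 and mitosis. Pcna, the DNA polymerase clamp, was at 66.6, 109 and 144 RPKM with X10 and 71.2, 86.4 and 104.5 RPKM with insulin (0.34, limma, adjusted p = 0.204), while Gins2 of the replicative helicase had -0.41 (0.193). Mki67, the usual proliferation marker, had 11.9, 18.0 and 27.2 RPKM with X10 and 14.7, 20.1 and 28.7 RPKM with insulin, a difference of -0.22 with an interval of -0.64 to 0.19 (0.733). The checkpoint kinase Bub1 had 0.40 (0.497). Replication-dependent histones, which lack poly-A tails in dividing cells, were higher for 12 of 27 (median -0.028), a median that was 0.043 after quantile normalization and 0.14 with the GC and length correction. By p-value the first of them was Hist3h2a (0.44, 0.172).

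Trp53 itself, the altered gene of this model, was at 19.1, 39.1 and 103 RPKM with X10, 32.2, 46.4 and 69.8 RPKM with insulin and 10.5, 42.5 and 62.3 RPKM with vehicle. Reads of the mutant and the wild-type allele are not separate in these values, and the difference of -0.29 had an interval of -0.93 to 0.35 (limma, adjusted p = 0.788). Genes of p53 and its targets were higher for 10 of 24 (median -0.031), with Phlda3, an AKT inhibitor induced by p53, at 0.65 (0.146) and Ei24 at -0.26 (0.371). Of 20 cancer driver genes, of which the study names Ezh2, Hras and Traf7, 6 were higher (median -0.067). Ezh2, the histone methyltransferase of the Polycomb complex, had 17.0, 32.1 and 34.2 RPKM with X10 and 18.4, 27.1 and 44.9 RPKM with insulin, a difference of 0.13 (-0.21 to 0.47, 0.835). Traf7, a ubiquitin ligase, had -0.062 (0.864), and Arid1a, of the SWI/SNF complex, had -0.38 (0.159). Stress genes of the endoplasmic reticulum were higher for 11 of 27 (median -0.058), with Hsp90b1 at 0.24 (0.398) and Herpud1 at -0.41 (0.288).

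Markers of the EMT-like type, for which the authors chose the tumors, were read in each tumor. Vim, the intermediate filament of mesenchymal cells, was at 1480.1, 4346 and 5762 RPKM with X10 and 2267, 3355 and 3642 RPKM with insulin, and Cdh1, the junction protein of epithelia, was at 2.23, 8.85 and 49.5 and 3.56, 7.45 and 21.0 RPKM. Vim far exceeded Cdh1 in every tumor of both groups, least so in X10_105, at 1480.1 RPKM of Vim and 49.5 RPKM of Cdh1. As levels of different genes in bulk tumors, these values cannot settle whether a tumor was of that type. In 7 X10 tumors Vim was above every insulin tumor, and its difference of 0.34 did not pass (limma, adjusted p = 0.559).

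Epithelial genes were higher on average with X10, and X10_105 and X10_111 stood highest for several of them. The 6 epithelial genes of the study were all higher (median 0.64), with 0 passed. The study took EMT genes from a pathway resource and grouped these 6 by clustering these tumors, so their count is not independent evidence of a direction. Grhl2, a transcription factor that keeps the epithelial state, was at 0.536, 2.30 and 10.7 RPKM with X10 and 0.115, 0.329 and 4.70 RPKM with insulin, a difference of 1.502 (limma, adjusted p = 0.234). Serpinb5, maspin, was at 0.0620, 0.470 and 39.4 and 0.0230, 0.118 and 0.517 RPKM (1.64, 0.295). X10_105 and X10_111 were the highest for both genes, and all 10 X10 tumors had Grhl2 above the median of the insulin tumors, with 2 of them above every insulin tumor. Elf3 had 0.76 (0.698), Elf5, the alveolar master regulator, had 0.53 (0.842), Cdh1 had 0.24 (0.929) and Wnt4 had 0.22 (0.914). The tumor insulin_13, which held salivary transcripts, was the highest insulin tumor for Grhl2, Elf3, Elf5 and Wnt4. Without X10_105 the list median was 0.38, with Elf5 at 0.20, Cdh1 at -0.021 and Wnt4 at -0.12, and without insulin_13 it was 1.06, with Elf5 at 0.98. Elf3 was at 0.47 without X10_111. With the marker scores as covariates the list median was -0.11. Of the single genes examined that did not pass, 37 (31.9%) had a difference that moved by over 1.5 times or turned sign when some single tumor was left out.

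Mammary lineage lists followed the same tumors. Luminal markers were higher for 17 of 19 (median 0.96, 0.58 without X10_105, 0.62 without X10_111 and -0.097 with the marker scores, which include luminal genes, as covariates) and basal markers for 11 of 16 (median 0.75, 0.34 without X10_105), with 0 passed. The most abundant luminal markers were Krt8, Krt7 and Krt18, and the most abundant basal markers Krt14, Acta2 and Krt17. Summed, luminal markers were at 166, 387 and 3126 RPKM with X10 and 127, 335 and 745 RPKM with insulin, and basal markers at 117.7, 205 and 5852 and 142.6, 188 and 289 RPKM. Krt19 had a difference of 2.13 (limma, adjusted p = 0.330), Aldh1a3 of 1.38 (0.363) and Krt6a of 2.40 (0.267). Krt6a, a keratin of stressed and wound epithelium, was at 388 RPKM in X10_105 and 50.9 RPKM in X10_111, where no insulin tumor exceeded 0.359. Milk protein genes were higher for 8 of 9 (median 0.35, 0.13 without X10_116 and -0.019 with the marker scores as covariates), with Csn1s1 at 1.84 (0.495) and Csn2 at 1.18 (0.677). In bulk tumors, more cells of a type and more RNA per cell cannot be told apart.

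Mesenchymal genes of the study were higher for 5 of 11 (median -0.15, and 0.023 with the marker scores as covariates), with 0 passed. Zeb1, a repressor of Cdh1, was at 25.1, 68.1 and 81.4 RPKM with X10 and 52.0, 64.5 and 83.5 RPKM with insulin (-0.23, limma, adjusted p = 0.820), and lowest in X10_105. Of the other EMT factors, Twist1 had 0.15 (0.919), Snai1 0.17 (0.873) and Snai2 0.024 (0.990). Cdh2 had -0.51 (0.845), Tcf4 -0.15 (0.744), Klf8 -0.18 (0.805), Pdgfrb -0.22 (0.767) and Wnt5a -0.29 (0.834). The sign of Snai2 depended on single tumors, with log2 differences between -0.12 and 0.19 (lowest without X10_105) when 1 tumor was left out.

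**Figure D3:**
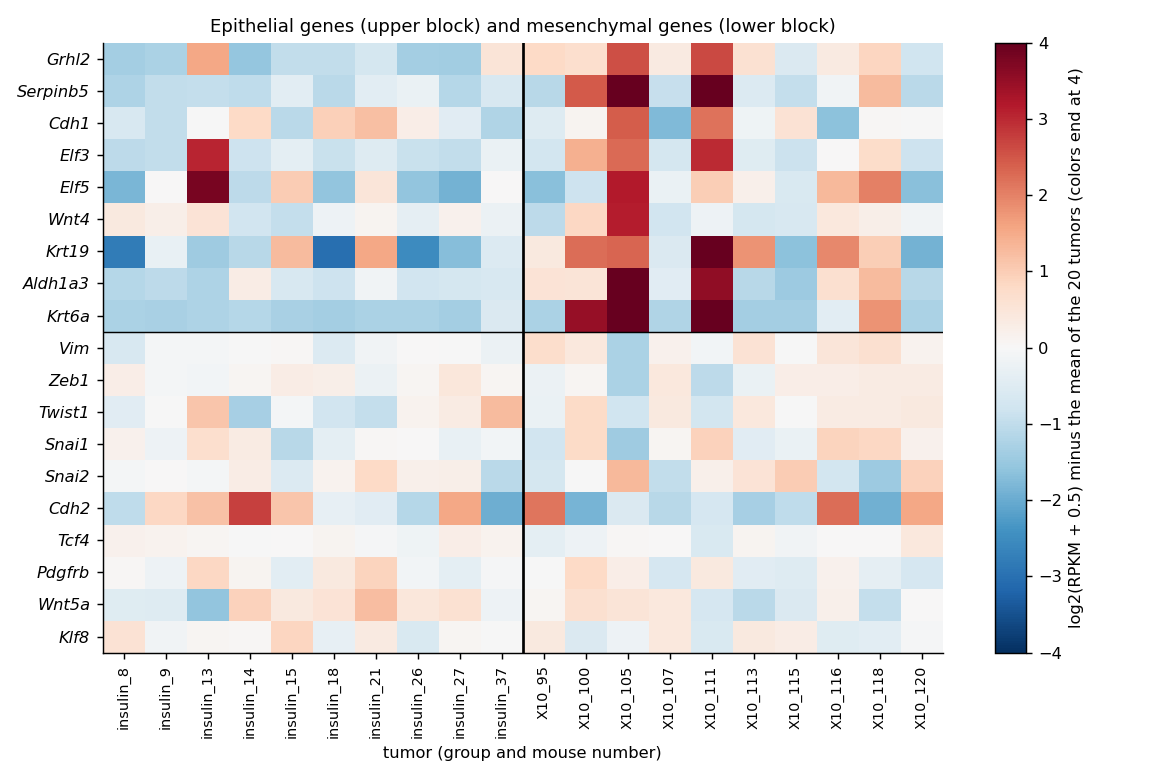
Levels of 9 epithelial genes (upper block) and 10 mesenchymal genes (lower block) in the 10 insulin and 10 X10 tumors, as log2(RPKM + 0.5) minus the mean of the 20 tumors, with colors ending at 4. X10_105 and X10_111 have the highest levels of most epithelial genes, insulin_13 has high Elf3 and Elf5, and Vim and Zeb1 are lowest in X10_105.

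Most stromal genes had lower means with X10. Matrix and collagen genes were higher for 10 of 37 (median -0.23, and -0.10 with the GC and length correction) and fibroblast markers for 3 of 16 (median -0.24, -0.15 without X10_95 and -0.14 with that correction; Col1a1, Col3a1 and Fbln2 were the most abundant), with 0 passed. Col1a1 was at 4138, 6309 and 10021 RPKM with X10 and 2639, 11731 and 16248 RPKM with insulin, the ranges overlapped, and insulin_37 was the lowest of all 20 (-0.61, limma, adjusted p = 0.606). Summed fibroblast markers were at 7168, 10688 and 13976 RPKM with X10 and 5294, 16236 and 22365 RPKM with insulin. Col4a2, of the basement membrane, had -0.34 (0.494), and Timp1, a protease inhibitor, had 0.54 (0.419). Cyr61, a YAP target, was at 34.4, 59.9 and 98.0 RPKM with X10 and 69.97, 102 and 143.5 RPKM with insulin. In 8 of the 10 X10 tumors it was below every insulin tumor, with a difference of -0.69 that did not pass (0.295). Tgfbr2 had -0.64 (0.324). Pericyte markers (Mcam, Des and Rgs5 leading) were higher for 2 of 12 (median -0.20, and -0.061 with the GC and length correction), and endothelial markers (Eng, Esam and Plvap) for 4 of 18 (median -0.16, -0.069 without X10_111, -0.078 without insulin_8 and -0.090 without X10_95), with Flt1 at 0.62 (0.263) and Sox18 at -0.42 (0.393).

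Lists of immune cells split by type. Macrophage markers (Apoe, Lyz2 and C1qa the most abundant) were higher with X10 for 3 of 20 (median -0.30), T and NK cell markers (Ccl5, Lck and Cd4) for 0 of 22 (median -0.32) and MHC class I genes for 2 of 14 (median -0.26). The T and NK median was -0.55 without X10_105, -0.13 without insulin_8 and -0.16 without insulin_9, that of MHC class I was -0.40, -0.17 and -0.17 with the same tumors left out, and that of macrophages was -0.19 without insulin_9 or insulin_15 and -0.45 without insulin_13. Summed MHC class I genes were at 3112, 6003 and 9377 RPKM with X10 and 4449, 5665 and 15022 RPKM with insulin, so that this median was higher with X10. Csf1r, the receptor that macrophages need, was at 56.7, 94.4 and 130.3 RPKM with X10 and 59.6, 118.02 and 243 RPKM with insulin (-0.46, limma, adjusted p = 0.557). Its ligands Il34 and Csf1 had -0.74 (0.233) and -0.80 (0.288). For both cell types the groups overlapped: the summed T and NK markers were at 38.5, 64.4 and 464 RPKM with X10 and 32.6, 107.1 and 611 RPKM with insulin, with X10_105 the highest X10 tumor, and the macrophage markers at 2071, 4232 and 7868 and 1722, 5138 and 9829 RPKM.

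Mast cell markers (Tpsab1, Kit and Mcpt4 leading) were higher for 8 of 9 (median 0.68) and neutrophil markers (Mmp9, S100a9 and S100a8) for 12 of 14 (median 0.35, 0.18 without insulin_15, 0.20 without X10_105, 0.21 without X10_116 and 0.060 with the marker scores as covariates). The summed neutrophil level was at 68.0, 613 and 5257 RPKM with X10 and 273, 686 and 3149.8 RPKM with insulin, so that its median was lower with X10. Summed mast cell markers were at 27.0, 134.7 and 392 RPKM with X10 and 41.7, 65.7 and 235 RPKM with insulin, and the ranges overlapped. Fcer1a, of the IgE receptor, had a difference of 0.71 (limma, adjusted p = 0.377), the protease Cpa3 of 0.85 (0.576) and the neutrophil gene Retnlg of 1.11 (0.529). B and plasma cell markers (Igkc, Sdc1 and Igj) were at 338, 718 and 41579.9 RPKM with X10 and 271, 578 and 6309 RPKM with insulin. X10_105 was far above the other X10 tumors, and the list median of -0.12 became -0.70 without it. Adipocyte markers (Fabp4, Car3 and Pnpla2) were higher for 12 of 14 (median 0.40, 0.13 without X10_105). Skeletal muscle markers (Acta1, Mylpf and Atp2a1) reached 4494 RPKM in X10_105 and 3725 RPKM in insulin_9 (median -0.065, from -0.51 without X10_105 to 0.41 without insulin_9, and 0.22 without insulin_13), and their part in the results above was not tested beyond a fit with muscle, adipocyte and luminal scores as covariates, in which 10 genes passed.

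Salivary gland genes had the lowest median of the lists, -1.19, and the highest levels were those of insulin_13. The mean RPKM that decided which members were tested included insulin_13, so the sign and rank of this median are not independent of the filter. Bpifa2 was at 84726 RPKM in insulin_13, 428 RPKM in insulin_14 and no more than 0.179 in X10 tumors, Smr3a at 16577 and Amy1 at 16196 RPKM in insulin_13. Without insulin_13 the list median was -0.19, and that of 32 interferon-stimulated genes, 0.12 with all tumors, was -0.014. No salivary gene passed with or without it.

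**Figure D4:**
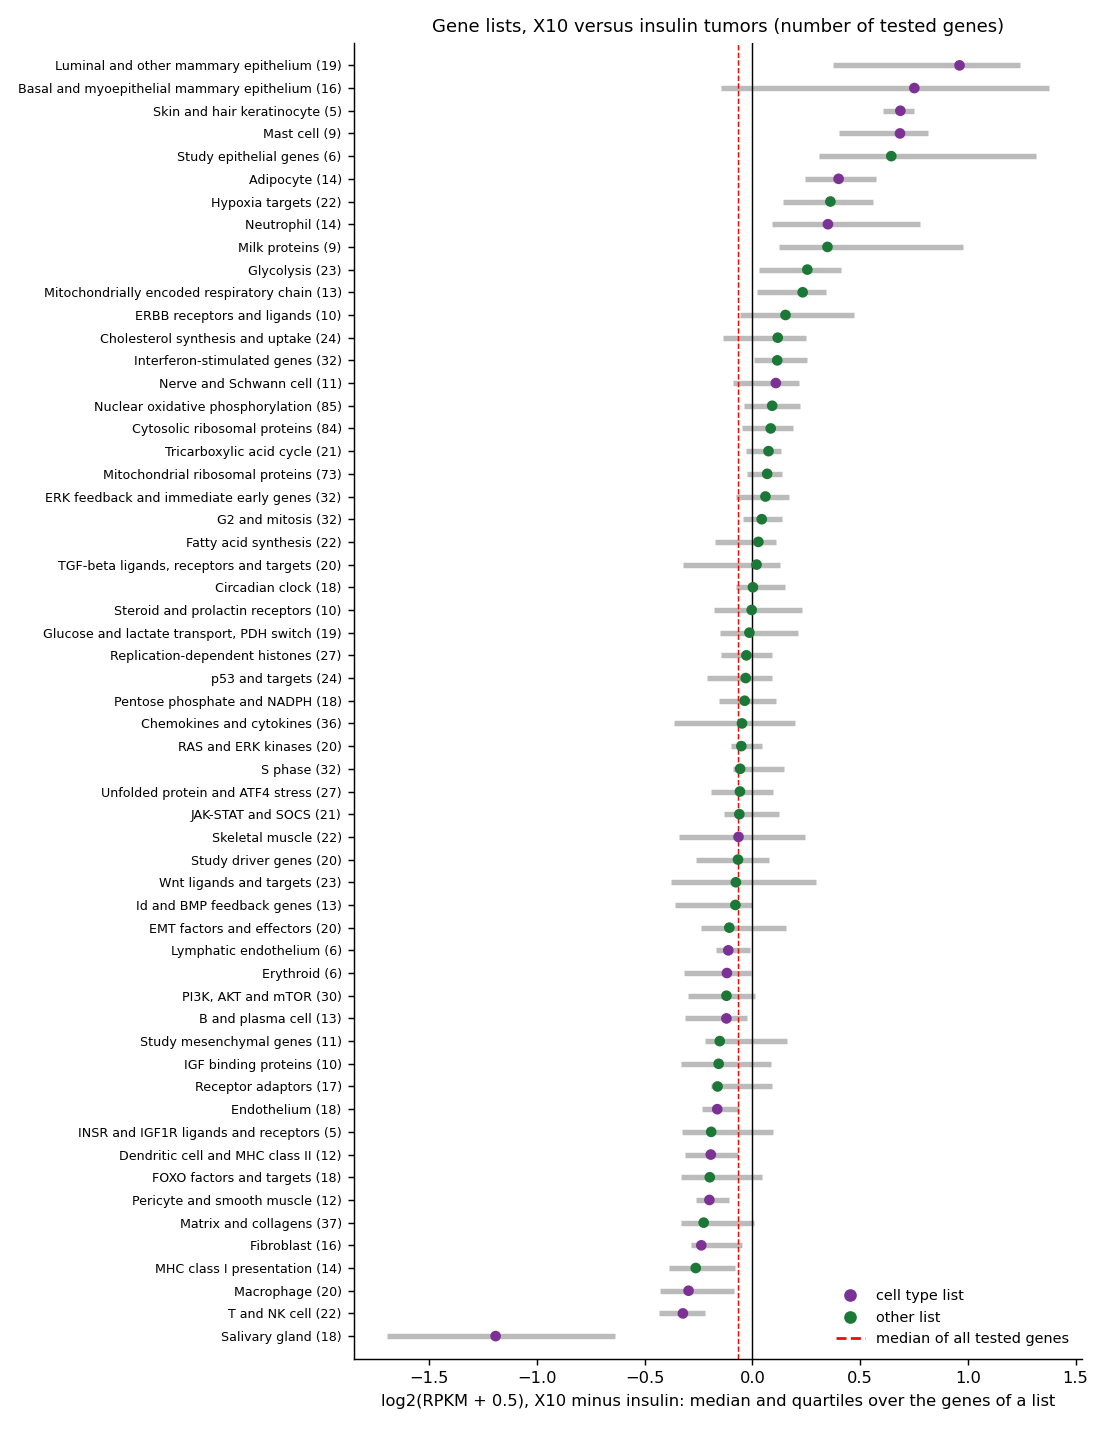
Median (point) and quartiles (bar) of the difference between X10 and insulin tumors, in log2(RPKM + 0.5), over the genes of each of 57 lists, with the number of tested genes in brackets and the median of all tested genes as a dashed line. Epithelial, mast cell, hypoxia and glycolysis lists lie to the right, T cell, macrophage and matrix lists to the left. The salivary list, whose members were filtered on a mean that includes insulin_13, is farthest left.

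Of the 57 lists, 55 held no gene that passed, and the 1172 distinct genes on them held 2 (Rpl30 and Atp5c1). Of all 16733 tested genes, 17 passed (0.102%). The median of 24 lists was above 0 and that of 33 below, and 29 lists kept the sign of their median in all alternatives tried. Lists with a median of either sign near that of all genes included Wnt ligands and targets (10 of 23 higher, median -0.077), JAK-STAT genes (8 of 21, -0.061), chemokines and cytokines (17 of 36, -0.048), TGF-beta genes (11 of 20, 0.019) and steroid and prolactin receptors (4 of 10, -0.0034). ERBB receptors and ligands had 6 of 10 higher (median 0.15).

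The called genes were also placed on the chromosomes, a view chosen after the values were seen and given with no test. For each of the 20 chromosomes, the median difference of its protein-coding genes was taken. It was lowest for chromosome 8, which carries Crtc1, at -0.20 with 81.0% of 715 genes lower with X10, and highest for chromosome 12 (0.094, 65.2% of 443 higher) and chromosome 15, which carries Rpl30 and Rad1 (0.070, 63.1% of 539 higher). Chromosomes 1 (Mob4, Snrpe and Ppil3) and 2 (Atp5c1, Eif3m and Psmd14) had medians of 0.047 and 0.024. With the GC and length correction the medians were 0.089 for chromosome 1, 0.080 for chromosome 2 and 0.14 for chromosome 15. Leaving out 1 tumor kept chromosome 1 between 0.026 and 0.068, chromosome 2 between 0.0015 and 0.038, chromosome 8 between -0.22 and -0.16 and chromosome 15 between 0.049 and 0.090.

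Single tumors also differed in the median of a chromosome. Relative to the 50 tumors and to all protein-coding genes of a tumor, the genes of chromosome 8 had a median of -0.52 in X10_95, the tumor with the lowest Crtc1 of the 20, and of 0.31 in insulin_37, the tumor with the highest of the 20. Vehicle tumors reached similar extremes, with -0.52 in one whose Crtc1 was at 11.6 RPKM and 0.35 in one whose Crtc1 was at 25.2 RPKM. Without X10_95 the group difference for chromosome 8 was -0.16, and with the GC and length correction it was -0.13. For chromosome 15, among X10 and insulin tumors, the highest values were 0.30 in X10_116 and 0.25 in X10_118, and the lowest -0.25 in insulin_15. X10_95 also had -0.47 for chromosome 16, 0.34 for chromosome 11 and 0.29 for chromosome 10, and X10_111 had 0.39 for chromosome 12. Values at least 0.25 from 0 were found in 11 of 200 pairs of an X10 tumor and a chromosome, in 5 of 200 for insulin and in 34 of 200 for vehicle. DNA copy number was not measured here.

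A neighbourhood of chromosome 6 around Met stood out by its levels. Its 10 tested genes, from Tes to Cttnbp2, all had a higher mean with X10, and 0 passed. One of them, Asz1, met the filter through X10_100, as given above. Capza2, an actin-capping subunit, was at 250.5, 6563 and 22082 RPKM with X10 and 188, 1459 and 4668 RPKM with insulin, and 7 of the 10 X10 tumors were above every insulin tumor (2.16, limma, adjusted p = 0.191). St7 was at 9.89, 114 and 573 and 5.79, 13.3 and 79.2 RPKM, with 8 X10 tumors above every insulin tumor (2.59, 0.1003, and 0.0346 without X10_105). Met, the receptor of hepatocyte growth factor, was at 21.8, 1229.7 and 2086 RPKM with X10 and 54.8, 475 and 963 RPKM with insulin, and 6 X10 tumors were above every insulin tumor while X10_105 was below all of them (0.78, 0.786). The Met difference was 1.34 without X10_105 and 0.45 without insulin_15. The caveolae genes Cav2 (1.40, 0.531) and Cav1 (1.12, 0.582) had the same sign, as did Asz1 (above), Tes (0.98, 0.770), Wnt2 (0.72, 0.765), Cftr (1.28, 0.507) and Cttnbp2 (0.76, 0.703), the last with a difference of 0.089 without X10_100.

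Summed over the 10 genes, the level was between 649 (X10_105) and 34493 RPKM (X10_116) with X10, with a median of 19511, and between 626 and 13659.7 RPKM with insulin, with a median of 4519. The highest vehicle tumor had 17814 RPKM, also above every insulin tumor. In X10_116 these genes made up 5.50% of all RPKM, and in insulin tumors at most 2.09%. Other single tumors had like peaks: Cdk4, the cyclin D kinase, was at 1224 RPKM in X10_95 and no more than 290.1 RPKM with insulin, and Yap1, the Hippo effector, and its neighbour Birc2 were at 1182 and 104 RPKM in X10_100 and at 278 and 19.7 RPKM in insulin_13. In one vehicle tumor Yap1 reached 8940.1 RPKM.

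**Figure D5:**
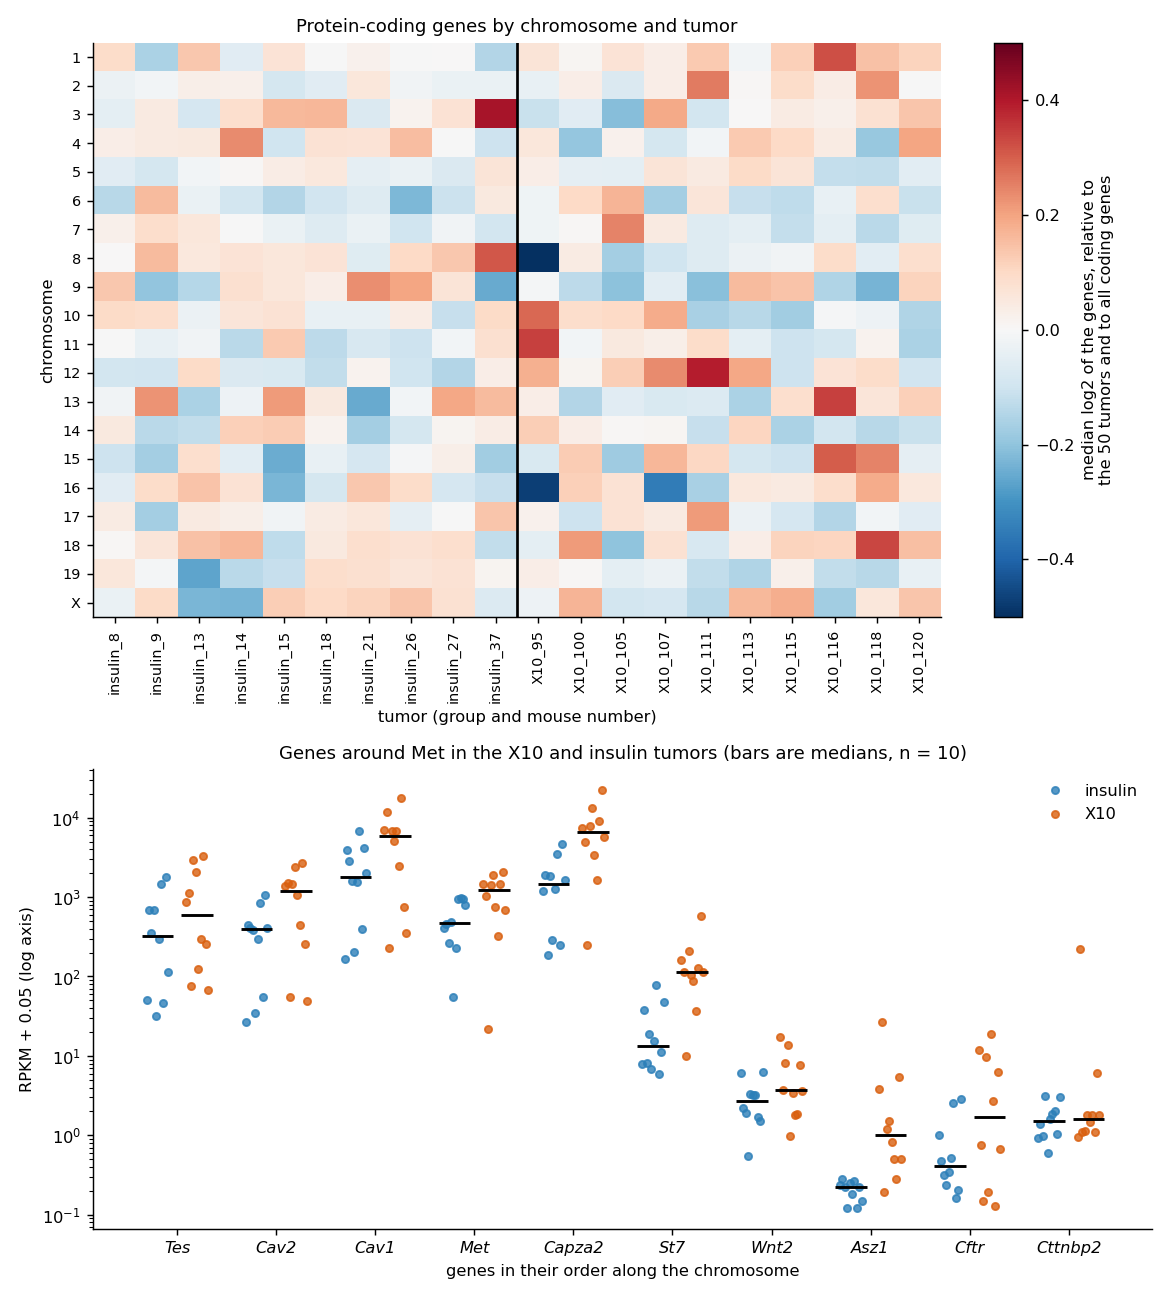
Upper panel, the median of the protein-coding genes of each chromosome in each insulin and X10 tumor, on the log2 scale relative to the 50 tumors and to all protein-coding genes of the tumor, with colors ending at 0.5. Lower panel, RPKM plus 0.05 (log axis) of the 10 genes around Met in their order along the chromosome, by tumor, with medians as bars; X10 medians are higher from Tes to St7, and X10_95 is lowest for chromosomes 8 and 16.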

How the data were processed

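Poly-A RNA of 50 MG tumors was sequenced by the authors on an Ion Proton. The deposited values are RPKM per gene; the submitters' processing notes and the study's methods name TopHat2 2.0.10 with Bowtie2, HTSeq 0.6.1, DESeq2 1.2.10 and GRCm38. RPKM scales the reads of a gene by its length and by the reads of the tumor, so a few very abundant transcripts lower all other values of a tumor. Groups were taken from the sample labels, which give a number to each tumor and no sequencing batch, so a batch cannot be told apart from a group. The labels of the vehicle group read Untreated, and vehicle is the term of the study. No per-sample column was left unused.

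Of 37701 genes, the 16733 with a mean RPKM of at least 0.5 over the 50 tumors were tested on log2(RPKM + 0.5) with limma 3.58.1 (R 4.3.3, intensity trend, 5 groups in the fit), with Benjamini-Hochberg adjustment over all 16733 and a threshold of 0.05. Differences are X10 minus insulin and understate changes of low genes. Library sizes and reads were recovered from the steps of the RPKM values (97.1% of tested genes) and served the voom alternative and the depth. Gene types, positions and transcripts came from GENCODE M21 (GRCm38), with blastn 2.17.0+ for coding genes similar to pseudogenes. The fit was checked on simulated data with 200 changed genes of 16733: it recovered 15%, 64.5% and 96% of log2 changes of 0.5, 1 and 2.

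The members and the 57 gene lists were chosen with earlier results of these data known. Named genes were, in each direction, called genes by smallest p (filled to 10 with protein-coding genes by smallest p), the receptors, ligands and Irs genes, up to 2 members of each list in each direction, the 3 most abundant members of cell type lists, and genes the study names; some items that the rule names are not reported here. The chromosome view, the genes around Met, Commd3, Cdk4, Yap1 and Birc2 were chosen after their values were seen. There were 34 alternatives: pseudocounts, filters, scalings, covariates, samples in the fit and each of the 20 tumors left out, plus 2 added after seeing the data, a correction for GC content and length (spline, 5 degrees of freedom) and a processed pseudogene score.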

Additional observations from a re-analysis of the deposited data

Results flagged for a closer look

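Among 304 groups of 10 tumors examined, 35 held a tumor set apart from its group. Its gap to the nearest tumor exceeded 0.466 of the group's range, taken on the log2 scale for RPKM and summed RPKM. About 1 in 20 unselected groups (15.2) would be flagged by chance. Some genes were included after their peaks in single tumors were seen, so these counts are not a comparison with chance. X10_105 had 83.3 RPKM of Hras, 169 of Herpud1, 12.4 of Wnt4, 1480.1 of Vim and 21.8 of Met, and summed levels of 670.03 RPKM for pericyte, 41579.9 for B and plasma cell and 159.9 for keratinocyte markers. X10_95 had 11.3 RPKM of Crtc1, 6.82 of Igf1 and 1224 of Cdk4. X10_100 had 91.3 RPKM of Pdk1, 17.0 of Ezh2 and 223 of Cttnbp2. X10_107 had 14.1 RPKM of 5830417I10Rik, X10_113 had 20.3 of Fdft1 and X10_116 had 343 of Rpl23.

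Of the insulin tumors, insulin_13 had 10.5 RPKM of Ccng2, 6.66 of Pfkfb4, 27.9 of Elf5, 8.51 of Elf3, 278 of Yap1, 16577 of Smr3a and 16196 of Amy1, and a summed salivary level of 132119 RPKM. The tumor insulin_37 had 0.359 RPKM of Krt6a, 2639 of Col1a1 and 5294 over fibroblast markers. The tumor insulin_9 had 1.22 RPKM of Fcer1a, 14.5 of Cpa3 and 235 over mast cell markers. The tumor insulin_8 had the largest library, 51.9 M reads, and 6309 RPKM over B and plasma cell markers. Igf2 was at 1449 RPKM in insulin_21, and Met at 54.8 RPKM in insulin_15.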

How the results depend on the processing

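Against 17 called genes, there were 8 with all genes of a nonzero value, 31 with only X10 and insulin tumors in the fit (11 of the 17 among them), 6 with library size as a covariate, 10 with marker scores as covariates, 2 without pseudogenes (Rpl30 and Crtc1), 8 with limma voom on recovered reads, 13 with the GC and length correction (8 of the 17 among them) and 7 with the processed pseudogene score (3 of the 17), and between 5 and 95 when 1 tumor was left out. The share of calls that were higher with X10 was 23.5%, against 46.2% of 13 calls with quantile normalization, 13.3% of 15 without the intensity trend and 71.4% of 7 with the pseudogene score. The median of all genes was -0.067, -0.0038 with quantile normalization and -0.0070 with the GC and length correction. The mean library size difference was between -3.97 and -1.23 M reads with 1 tumor left out.

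Signs turned for genes that had not passed. With marker scores, which include luminal genes, the log2 difference was -0.35 for Elf5, -0.42 for Cdh1, -0.057 for Elf3, -0.15 for Wnt4 and 0.023 for Zeb1. It was 0.096 for Hras and 0.023 for Traf7 with the pseudogene score, and 0.011 for Traf7 and -0.061 for Snai2 with the GC and length correction. With 1 tumor left out it was between -0.021 and 0.44 for Cdh1, -0.12 and 0.35 for Wnt4, -0.12 and 0.19 for Snai2, and -0.063 and 0.25 for Cdk4. The cause was not tested. Of the other values of named genes, 4207 kept direction and side of the threshold, 239 lost the call and 24 gained one. No paired analysis was possible because the groups share no replicate numbers. At this number of tumors, log2 changes of 0.5 were mostly missed in simulated data.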
